A study of Homo sapiens with 12 samples.

Results

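NCI-H2228 is a human lung adenocarcinoma cell line, and what is described here is how its transcripts differ from those of 3 other lung adenocarcinoma lines in every culture state. It is represented by 3 of the 12 libraries of the study, chosen by the cell line named on each library. The other 9 come from NCI-H2009, LC-2/ad and HCC4006. Each line has 1 library from ordinary attached culture without treatment, 1 from day 1 and 1 from day 7 after trypsin and replating on an ultra-low attachment surface. All lines were kept in RPMI-1640 with fetal bovine serum, penicillin and streptomycin, and no state of a line was repeated. The 3 NCI-H2228 libraries therefore share their source, and every p-value speaks of these 4 lines and of how far a line strays from the course over states that the lines share. In bulk RNA, fewer cells of a kind and less RNA per cell cannot be told apart.

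As background, NCI-H2228 is widely used as a model of lung cancer driven by ALK, a receptor tyrosine kinase that is almost silent in normal lung and becomes active when a rearrangement joins its kinase part to EML4. LC-2/ad is known for a RET fusion and HCC4006 for an activating EGFR deletion. Lung adenocarcinomas usually keep an epithelial character, with E-cadherin junctions, keratins and the lung factor NKX2-1. Some lose part of it and take on mesenchymal transcripts such as vimentin and fibronectin, a shift known as epithelial to mesenchymal transition (EMT). NRF2 is a transcription factor that switches on genes of glutathione, thioredoxin and NADPH supply, and KEAP1 is the adaptor that has it degraded.

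The libraries held 31134420 to 41882024 estimated counts, and their 10 most abundant genes took 8.42% to 13.97% of TPM, an abundance scaled for gene length and library size. A gene was called set apart when NCI-H2228 differed from each of the 3 other lines in the same direction, by at least 2-fold and with an adjusted p under 0.05 in each contrast. Of 18494 genes tested, 639 were set apart as higher (3.46%) and 697 as lower (3.77%), together 7.22%. By TPM alone, 1232 genes (6.66%) had all 3 NCI-H2228 libraries above the 9 others and 1224 (6.62%) below them, and 578 and 592 of these were also set apart. Against the mean of the other 3 lines, 3741 were higher (20.2%) and 2723 lower (14.7%). Limma on log2(TPM + 1), which changes the test, the normalization and the scale together, gave 3012 higher and 3452 lower. With the 9 other libraries taken as 1 group, in place of 3 lines, 834 genes were higher and 770 lower. NCI-H2228 was not alone in having such genes, since the same rule set apart 1364 in NCI-H2009, 1159 in HCC4006 and 762 in LC-2/ad. The text gives the fold change to the nearest other line, the smallest of the 3 contrasts, unless it says otherwise.

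**Figure D1:**
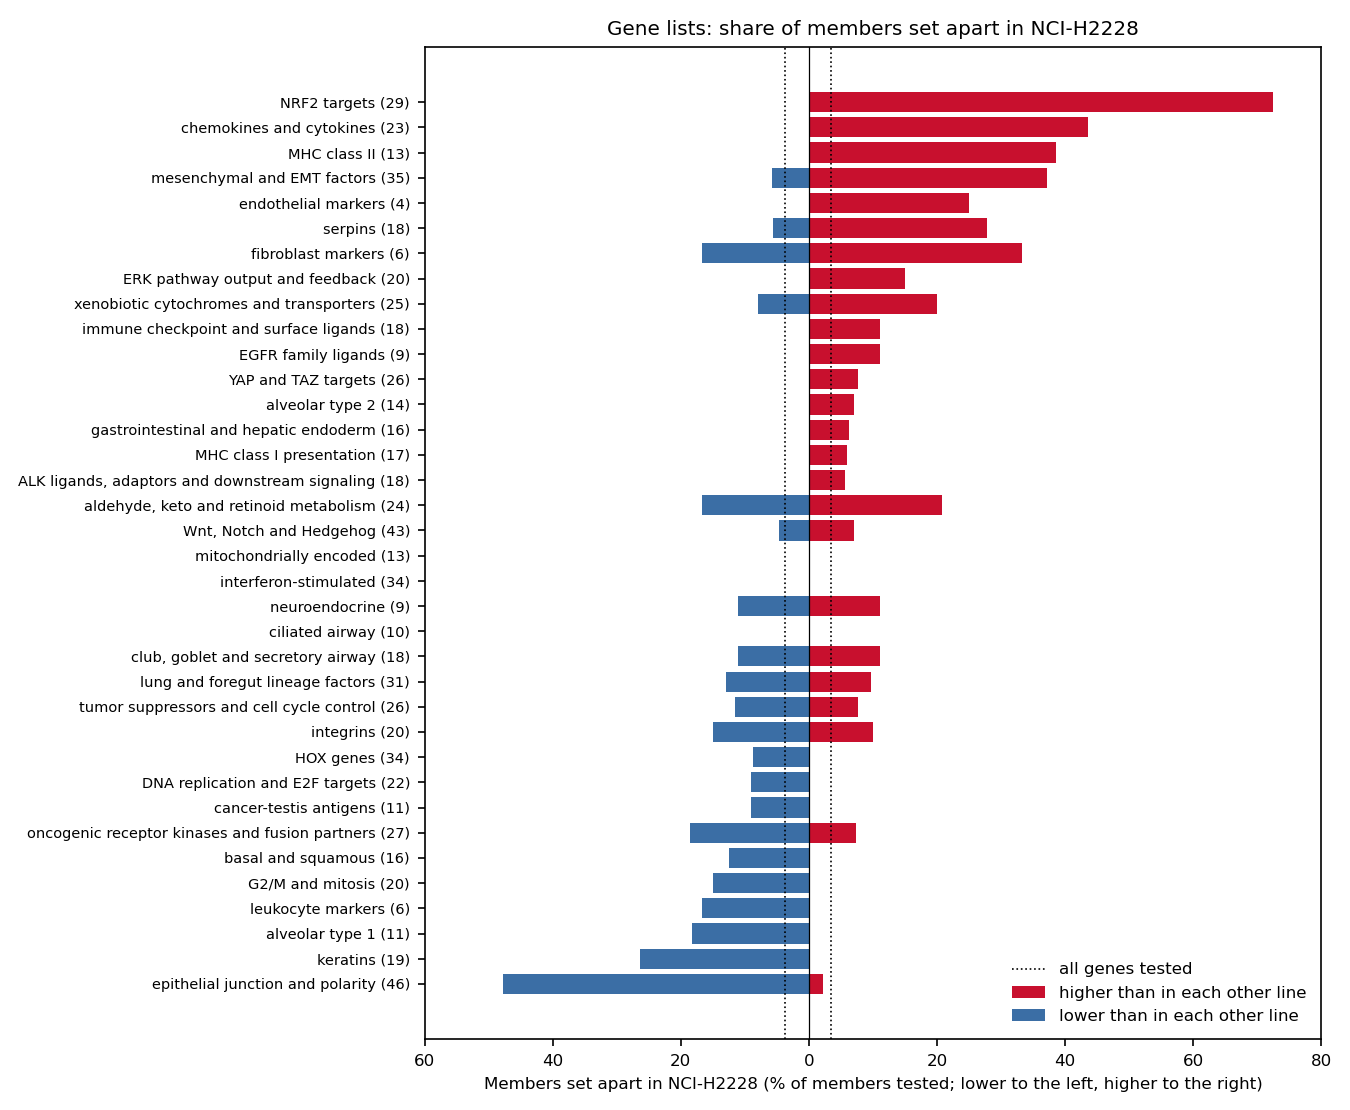
Share of the tested members of 36 of the 37 gene lists that were set apart in NCI-H2228, higher to the right and lower to the left, in percent, with the number of members tested in brackets and dotted lines at the shares over all genes tested (3.46% and 3.77%). The NRF2 list reaches 72.4% on the higher side and the epithelial junction list 47.8% on the lower side.

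ALK was the marker given for the line, and its transcript set NCI-H2228 apart. Its level was 7.81 TPM attached, 7.44 at day 1 and 8.14 at day 7. The 9 other libraries lay between 0 and 0.27 TPM, so the lines did not overlap, and the NCI-H2228 values changed little from state to state. Against the mean of the other lines the difference was 6.62 ± 0.59 on the log2 scale (SE, adjusted p = 3.95e-05), and HCC4006 was the nearest line at 3.76 ± 0.77 (adjusted p = 0.00518). ALK spans chr2:29192774-29921586 in GRCh38. A value per gene pools all its exons and cannot show a fusion transcript. EML4, the usual partner, stood at 35.7 to 40.01 TPM in NCI-H2228 against 37.3 to 103 TPM elsewhere.

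The other receptor kinases went both ways. Of 27 oncogenic receptor kinases and fusion partners tested, 2 were set apart as higher (7.4% beside 3.46% of all genes). Another 5 were set apart as lower (18.5% beside 3.77%). The median difference of the list to the mean of the other lines was -0.17, beside 0.04 over all genes tested. FGFR1, a fibroblast growth factor receptor, was at 43.1, 32.6 and 22.3 TPM in attached, day 1 and day 7 cells, above a highest value of 7.77 TPM in the other lines (log2 2.99 ± 0.43, adjusted p = 0.00092). KIT, the stem cell factor receptor, was listed at 0, 0.053 and 0 TPM in NCI-H2228 and at 0.808 to 58.3 TPM elsewhere. The ERBB family receptor ERBB2 was at 22.4, 17.5 and 12.4 TPM against 36.3 to 173 TPM (log2 -1.06 ± 0.28, adjusted p = 0.0173). FGFR4, PDGFRA and ERBB3 were also set apart as lower, and the ERBB3 values of NCI-H2228 overlapped those of the other lines. EGFR, at 63.5 to 112 TPM, was not set apart, since HCC4006 held 94.6 to 125 TPM.

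The ERK pathway lies downstream of these receptors. Among 20 genes that report its output and feedback, 3 were set apart as higher and 0 as lower. Over all genes tested the shares were 3.46% and 3.77%. The list median was 0.65, beside 0.04 over all genes tested. By state, the median difference in log2(TPM + 1) was 0.91 in attached cells, 0.1 at day 1 and 0.23 at day 7. Over all genes tested it was -0.06, -0.03 and -0.12. The difference between states was not tested. ETV1 and ETV5 are PEA3 group transcription factors. ETV1 stood at 133, 157 and 186 TPM in attached, day 1 and day 7 cells and at 4.40 to 47.3 TPM in the other lines (log2 2.22 ± 0.22, adjusted p = 0.000126). ETV5 stood at 213, 86.2 and 186 TPM against 17.0 to 50.8 TPM (log2 2.02 ± 0.30, adjusted p = 0.00113). DUSP4, a phosphatase that acts on ERK, was the remaining member, at 25.6 to 39.8 TPM against 2.74 to 24.6 TPM. Neither DUSP6 nor CCND1 was set apart: DUSP6 reached 154 to 284 TPM in NCI-H2228 and 337 TPM in HCC4006.

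Of the 37 gene lists, the NRF2 targets had the largest share of members set apart. Of 29 members, all tested, 21 were set apart as higher (72.4% beside 3.46% of all genes) and 0 as lower. Against the mean of the other lines 27 were higher, beside 20.2% of all genes, and the median difference was 2.28. AKR1C1, an aldo-keto reductase, stood at 560, 740 and 952 TPM in attached, day 1 and day 7 cells and at 0.098 to 19.2 TPM in the other lines (log2 6.03 ± 0.43, adjusted p = 2.11e-05). Its close relatives AKR1C2 and AKR1C3 were set apart as well, but the 3 genes are so similar that counting could have moved reads between them. GPX2, a glutathione peroxidase, was at 257, 266 and 147 TPM, and the other lines reached no more than 13.9 TPM (log2 4.71 ± 0.61, adjusted p = 0.000465). ALDH3A1, an aldehyde dehydrogenase, was at 2433, 1268 and 2219 TPM against 1.10 to 250.2 TPM (log2 3.32 ± 0.61, adjusted p = 0.0031). ABCC2, an efflux pump for conjugated compounds, stood at 65.8 to 90.7 TPM in NCI-H2228 and at no more than 3.21 TPM elsewhere.

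Members with central roles in redox supply followed. NQO1, the quinone reductase often read as a sign of NRF2 activity, was at 5692, 2762 and 5456 TPM in attached, day 1 and day 7 cells. The other lines held 319 to 1486 TPM, so all NCI-H2228 libraries were above them (log2 2.06 ± 0.42, adjusted p = 0.00461). Both subunits of the enzyme that starts glutathione synthesis, GCLC and GCLM, were set apart, and so was SLC7A11, the cystine importer, at 34.2, 7.46 and 27.0 TPM against 1.78 to 6.60 TPM. GCLM overlapped, because its day 1 value of 78.1 TPM lay below the 113 TPM of attached NCI-H2009. TXNRD1, which reduces thioredoxin, was at 918, 523 and 869 TPM against 83.6 to 401 TPM. ME1 and PGD, which make NADPH, were set apart by 1.27 ± 0.35 and 1.29 on the log2 scale. KEAP1, the inhibitor, was itself higher, at 198, 193 and 243 TPM against 34.97 to 122 TPM (log2 1.24 ± 0.17, adjusted p = 0.000501).

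The 8 members that were not set apart included TALDO1, TKT, HMOX1, UGT1A6, FTL, FTH1 and NFE2L2, the gene of NRF2 itself. TKT and HMOX1 did not pass against the mean of the other lines either (adjusted p = 0.474 and 0.228). The list took 5.93%, 8.03% and 10.2% of all TPM in attached, day 1 and day 7 NCI-H2228 and 0.95% to 5.04% in the 9 other libraries. Most of this was ferritin, since the 2 ferritin genes alone held 4.15% to 8.21% in NCI-H2228 and 0.75% to 4.53% elsewhere. Without them the list took 1.16% to 2.03% in NCI-H2228 and 0.20% to 0.50% in the other lines, a range that did not overlap.

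**Figure D2:**
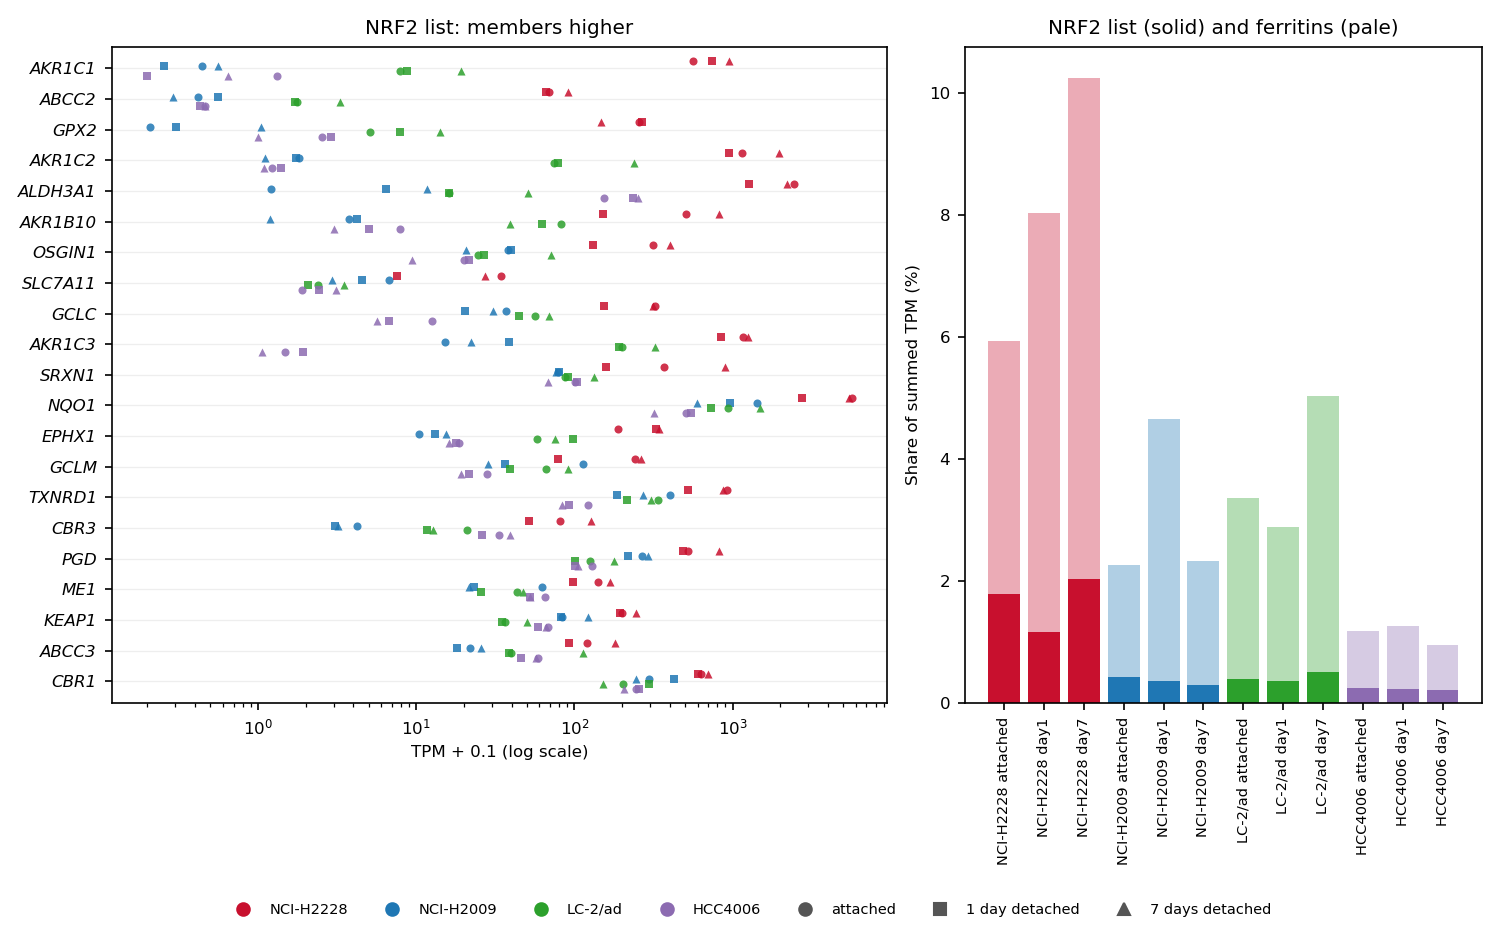
Left, TPM + 0.1 on a log axis of the 21 NRF2 list members set apart as higher, 1 point per library, coloured by line and shaped by state. Right, the share of all TPM taken by the list in each library, with ferritin genes pale, where the solid part is 1.16% to 2.03% in NCI-H2228 and at most 0.50% elsewhere.

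NRF2 binds the antioxidant response element, whose core was searched as TGACNNNGC on both strands of the 250 bases before each gene's start in the RefSeq promoter table for GRCh38.p14. Promoters were found for 21 of the 29 list members, and 6 of them held the letters (28.6%), beside 11.05% of all 27195 promoters, 12.1% of those of tested genes and 11.2% of those of genes set apart as higher. The epithelial junction list, whose members were mostly lower, held them in 6 of 26 promoters (23.1%). The following stretches, 5′ to 3′ on the gene's strand with the match or its reverse complement in capitals, show the letters beside 4 of the members described. They lie at chr14:64942824-64942902 (GPX2, minus strand), chr1:93909431-93909499 (GCLM, minus), chr12:104215645-104215723 (TXNRD1, plus) and chr6:83431145-83431223 (ME1, minus).
GPX2: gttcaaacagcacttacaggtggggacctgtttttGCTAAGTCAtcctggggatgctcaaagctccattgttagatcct
GCLM: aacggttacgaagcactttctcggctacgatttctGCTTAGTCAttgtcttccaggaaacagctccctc
TXNRD1: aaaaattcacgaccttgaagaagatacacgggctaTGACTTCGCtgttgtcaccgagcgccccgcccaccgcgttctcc
ME1: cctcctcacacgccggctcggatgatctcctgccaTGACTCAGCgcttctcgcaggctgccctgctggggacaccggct
The element's letters can overlap those of the AP-1 site, as they do in ME1. A match describes letters and not binding, and elements that lie farther from the start are outside this window.

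Genes of epithelial junctions and polarity made the clearest group on the lower side. All 46 listed genes were tested, and 22 were set apart as lower (47.8% beside 3.77% of all genes), 1 as higher, with a median difference of -1.50. CDH1, which codes for E-cadherin, stood at 20.2, 20.6 and 16.2 TPM in attached, day 1 and day 7 cells. The other lines held 68.3 to 685 TPM, so the groups did not overlap (log2 -2.52 ± 0.36, adjusted p = 0.000863). RAB25, an epithelial GTPase of apical recycling, was at 3.43, 6.71 and 4.42 TPM against 146 to 382 TPM (log2 -5.06 ± 0.27, adjusted p = 8.09e-06). AP1M2, the adaptor subunit that sorts cargo to the basolateral membrane of epithelial cells, was at 3.96, 5.06 and 5.20 TPM against 106 to 251 TPM (log2 -4.60 ± 0.21, adjusted p = 4.58e-06). The membrane protease PRSS8 was at 2.36, 8.65 and 8.99 TPM against 98.2 to 867 TPM, and CGN, the tight junction protein cingulin, at 0.502 to 0.791 TPM against 11.1 to 104 TPM.

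Among the 22 were transcription factors and a splicing regulator of epithelial cells. GRHL2 stood at 0.494, 0.594 and 0.232 TPM against 6.42 to 27.0 TPM, and OVOL1 at 0.085 to 0.534 TPM against 3.49 to 42.9 TPM. ESRP1, which directs epithelial splicing, was at 6.35 to 10.5 TPM against 34.1 to 53.9 TPM. EPCAM, a surface protein of epithelial cells, remained abundant at 204, 284 and 214 TPM but was below the lowest value elsewhere, 650.0 TPM (log2 -1.58 ± 0.19, adjusted p = 0.000295). The exception was CLDN2, a claudin of leaky epithelia, at 0.437, 5.68 and 2.25 TPM against at most 0.318 TPM (log2 4.73 ± 1.42, adjusted p = 0.0294). Of 19 keratins tested, 5 were set apart as lower (26.3% beside 3.77% of all genes) and 0 as higher. KRT7 was at 1240, 411 and 475 TPM against 1348 to 5175 TPM and KRT19 at 1654, 1509 and 1099 TPM against 2322 to 7845 TPM. Both keratins of simple epithelia thus stayed among the abundant transcripts of the line.

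Mesenchymal and EMT genes lay mostly on the other side. Of 40 listed, 35 passed the filter on low counts. Among these 35, 13 were set apart as higher (37.1% beside 3.46% of all genes) and 2 as lower (5.7% beside 3.77%). The list median was 1.67. CDH11, a cadherin of mesenchymal cells, stood at 798, 1131 and 492 TPM in attached, day 1 and day 7 cells against at most 11.4 TPM elsewhere (log2 6.50 ± 0.41, adjusted p = 1.45e-05). VIM, vimentin, was at 1190.4, 603 and 719 TPM against 12.3 to 116 TPM (log2 3.0 ± 0.29, adjusted p = 0.000117). FN1, fibronectin, was at 221, 459 and 343 TPM against 5.98 to 72.7 TPM (log2 3.39 ± 0.29, adjusted p = 3.63e-05). All 3 genes were higher in each NCI-H2228 library than in any other. The summed level of the whole list was 2581.9 to 4733.7 TPM in NCI-H2228. It overlapped HCC4006, at 2837.6 to 5143.9 TPM, and LC-2/ad, at 1754.8 to 3121.8 TPM, but not NCI-H2009, at 1101.6 to 2002.5 TPM.

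ZEB1 and ZEB2 code for repressors that bind E-box sites in epithelial genes. ZEB1 was at 14.9, 11.2 and 13.9 TPM against at most 0.487 TPM (log2 5.90 ± 0.89, adjusted p = 0.000989). ZEB2 was at 3.32, 2.49 and 3.10 TPM against at most 0.595 TPM. Other EMT factors did not follow. SNAI1 and SNAI2 were not set apart, and TWIST1 was listed at 0 in each NCI-H2228 library and at 0 to 3.04 TPM elsewhere. CDH2, which codes for N-cadherin, was lower in NCI-H2228, at 0.037 to 0.076 TPM against 0.114 to 26.1 TPM (log2 -3.80 ± 0.63, adjusted p = 0.00136).

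**Figure D3:**
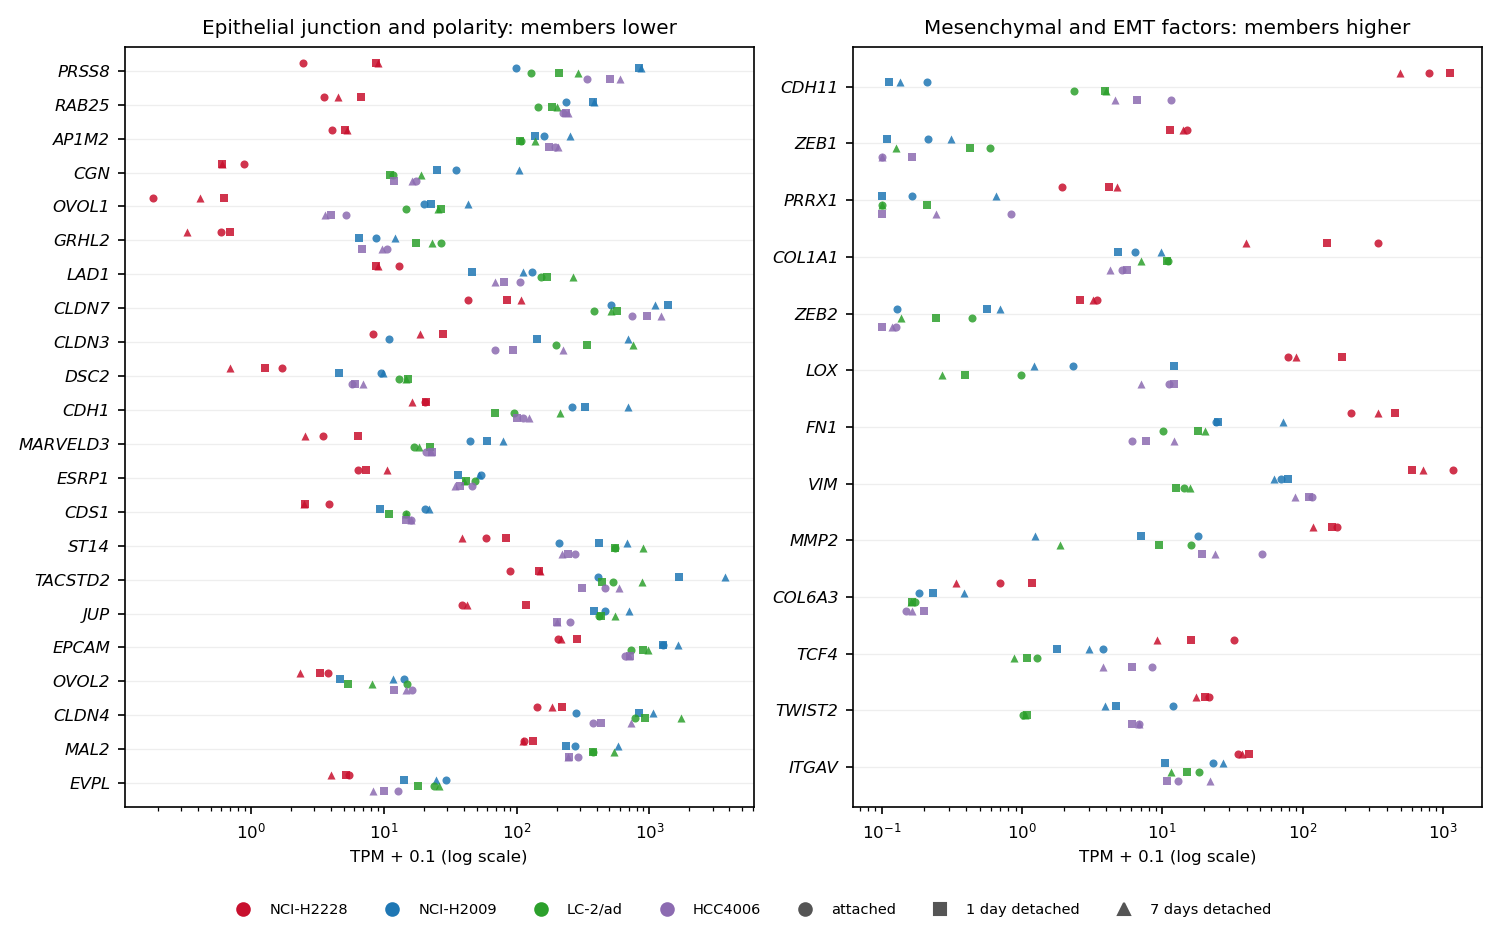
TPM + 0.1 on a log axis of the epithelial junction members set apart as lower (left, 22 genes) and of the mesenchymal members set apart as higher (right, 13 genes), 1 point per library. The NCI-H2228 points sit to the left in the first panel and to the right in the second in attached, day 1 and day 7 cells, with overlap for CLDN3 and COL6A3.

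The ZEB E-box was searched as CACCTG on both strands of the same 250 bases. It occurred in 12 of the 26 promoters found for the epithelial list (46.2%), beside 17.5% of all promoters, 16.6% of those of tested genes, 23.4% of those of genes set apart as lower and 23.8% of the NRF2 list. RAB25, AP1M2 and CDS1, a lipid enzyme of the list, are shown as examples picked by hand, with the letters close to their starts. The stretches lie at chr1:156061084-156061159 (RAB25, plus strand), chr19:10587313-10587404 (AP1M2, minus) and chr4:84583065-84583126 (CDS1, plus). Capitals mark the matches, of which AP1M2 has 3.
RAB25: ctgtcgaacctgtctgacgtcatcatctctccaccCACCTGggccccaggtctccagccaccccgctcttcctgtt
AP1M2: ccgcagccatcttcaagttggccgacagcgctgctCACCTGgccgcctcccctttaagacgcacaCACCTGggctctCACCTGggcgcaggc
CDS1: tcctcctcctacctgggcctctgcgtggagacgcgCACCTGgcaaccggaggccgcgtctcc
CDS1 stood at 3.80, 2.47 and 2.40 TPM in attached, day 1 and day 7 cells against 9.36 to 21.8 TPM elsewhere (log2 -2.19 ± 0.23, adjusted p = 0.000159).

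Markers of fibroblasts, which make many mesenchymal transcripts, were mixed. COL1A1, type I collagen, was at 347, 150 and 39.2 TPM against 4.12 to 10.9 TPM, and FAP, a surface protease of activated fibroblasts, at 29.2, 33.6 and 5.88 TPM against at most 3.29 TPM. Yet LUM was listed at 0 in all 3 NCI-H2228 libraries, COL1A2 at no more than 0.085 TPM and PDGFRB at no more than 0.681 TPM. The summed level of the 10 fibroblast markers was 46.0 to 377 TPM in NCI-H2228 and 5.8 to 62.3 TPM in the other lines. Of 12 leukocyte markers, 6 passed the filter and CSF1R was set apart as lower. PTPRC, which marks leukocytes, was at no more than 0.19 TPM in NCI-H2228. Of 8 endothelial markers, 4 passed and PECAM1 was set apart as higher, at 0.962 to 2.96 TPM, with CDH5 at no more than 0.02 TPM. The PECAM1 values overlapped those of the other lines. The summed level of the endothelial markers was 2.6 to 4.6 TPM in NCI-H2228 and 0.6 to 13.2 TPM in the other lines.

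NKX2-1 did not set the line apart. This lineage factor of lung epithelium stood at 29.9, 48.4 and 26.5 TPM in attached, day 1 and day 7 cells and at 27.2 to 107 TPM in the other lines. The difference to the mean of the other lines was -0.58 ± 0.26 (adjusted p = 0.106). Of 31 lung and foregut factors tested, 3 were set apart as higher and 4 as lower. These are 9.7% and 12.9%, beside 3.46% and 3.77% of all genes. FOXA2, a pioneer factor of foregut endoderm, was at 13.5, 9.39 and 12.8 TPM against 1.43 to 4.78 TPM (log2 1.66 ± 0.40, adjusted p = 0.0117), and IRX3 at 12.2 to 19.8 TPM against at most 4.38 TPM. SOX2, a factor of airway progenitors, was at 0.714, 1.44 and 0.436 TPM against 2.62 to 40.1 TPM (log2 -2.22 ± 0.66, adjusted p = 0.027). SOX9, GRHL1 and GRHL2 were the other members set apart as lower, and ETV5 the other one higher.

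Genes of alveolar type 2 cells, which make surfactant, were expressed in part, and HCC4006 reached higher levels of some. Of 14 alveolar type 2 genes tested, 7 were higher than the mean of the other lines and 2 were lower, beside 20.2% and 14.7% of all genes. Only 1 was set apart, as higher (7.1% beside 3.46%). SLC34A2, the phosphate transporter of type 2 cells, was at 575, 2677 and 395 TPM in NCI-H2228 and reached 2290.0 TPM in HCC4006. NAPSA, a protease that processes surfactant protein, was at 62.7, 179 and 94.4 TPM and reached 705 TPM elsewhere. SFTPC, the defining surfactant gene of these cells, was listed at 0 in each NCI-H2228 library. The member set apart was LAMP3, a protein of lamellar bodies, at 2.28, 10.04 and 42.8 TPM in attached, day 1 and day 7 cells against 0.249 to 3.57 TPM, with overlap in attached cells. Of 9 neuroendocrine genes tested, 1 was set apart as higher and 1 as lower. Each is 11.1% of the list, beside 3.46% and 3.77% of all genes. The higher one was UCHL1, a neuronal ubiquitin hydrolase, at 470 to 973 TPM against 10.0 to 202 TPM, while CHGA reached 0.12 TPM.

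Chemokines and cytokines were another list with many members on the higher side. Of 23 chemokines and cytokines tested, 10 were set apart as higher (43.5% beside 3.46% of all genes) and 0 as lower. The median of the list was 4.38, or 3.79 with TSLP, at 0 throughout LC-2/ad, taken at its bound. CXCL8, interleukin 8, was at 260, 144 and 128 TPM in attached, day 1 and day 7 cells against 0.29 to 24.1 TPM (log2 3.96 ± 1.01, adjusted p = 0.0146). IL6 was at 46.6, 86.1 and 32.5 TPM against at most 5.87 TPM (log2 3.47 ± 0.82, adjusted p = 0.0103). CSF1, the macrophage growth factor, was at 113, 317 and 167 TPM against 2.79 to 18.6 TPM. CXCL1, CXCL2, CXCL3, CXCL5, CXCL6, CCL20 and TSLP completed the 10, and CXCL1, CXCL2 and CXCL3 are similar enough for their counts to be uncertain. Leaving out attached NCI-H2228 or day 1 HCC4006 lowered the count from 10 to 6. The summed level of the list, 788.8 to 2125.8 TPM in NCI-H2228, overlapped the 797.8 to 1602.5 TPM of HCC4006.

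MHC class II genes present antigen to helper T cells. Of 13 tested, 12 were higher than the mean of the other lines, beside 20.2% of all genes. The list median was 5.63, or 5.50 with a gene at 0 in a whole line taken at its bound. Of the 13 genes, 5 were set apart (38.5% beside 3.46% of all genes). HLA-DRA stood at 511, 1163 and 448 TPM against 0.072 to 436 TPM, where the highest value was day 7 HCC4006 (log2 2.57 ± 0.71, adjusted p = 0.0201). HLA-DQA1 was at 42.8, 161 and 72.7 TPM against at most 2.17 TPM. CD74, the invariant chain, was not set apart, at 1466 to 3398 TPM against up to 5089 TPM in HCC4006, and neither was CIITA, the class II coactivator. The class II count depended on single libraries and lines. It was 3 without attached or without day 1 NCI-H2228, and also without attached or without day 1 HCC4006, and it was 12 when the line HCC4006 was left out. HLA alleles differ from the reference, so counts of these genes are uncertain. Of 17 genes of MHC class I presentation tested, 1 was set apart as higher (5.9% beside 3.46% of all genes) and 0 as lower. The class I median was 0.31, and the summed class I level of 12074.9 to 20695.8 TPM overlapped that of each other line. The 34 interferon-stimulated genes tested had 0 set apart in either direction. Against the mean of the other lines 6 were higher and 4 lower, beside 20.2% and 14.7% of all genes. IDO1, a tryptophan enzyme, was at 203, 344 and 98.8 TPM against at most 29.3 TPM.

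Among single genes, the 15 protein-coding genes furthest above the nearest line, of 311 that qualified, came from several functions. SYCE1, a protein of the meiotic synaptonemal complex, was at 22.6, 21.7 and 19.6 TPM and was listed at 0 in all 9 other libraries. Measured against a floor of 3 counts per library, that is at least 190-fold, 176-fold and 187-fold higher than in NCI-H2009, LC-2/ad and HCC4006. SYCE1 was among 2 protein-coding genes with at least 10 TPM in each NCI-H2228 library and at most 0.1 TPM in the 9 others, and no gene showed the reverse. TSPAN7, a tetraspanin, stood at 120.1, 103 and 182 TPM against at most 0.282 TPM (log2 9.58 ± 0.64, adjusted p = 8.84e-06).

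Genes of secreted proteins were among them. The complement components C2 and C1S stood at 66.3, 208 and 121 TPM and at 384, 1317 and 1004 TPM, against at most 0.759 and 6.24 TPM elsewhere. SPP1, the matrix protein osteopontin, was at 293, 1090.2 and 649.7 TPM against at most 4.96 TPM (log2 6.93 ± 0.38, adjusted p = 8.09e-06). CHI3L1, a chitinase-like glycoprotein, was at 287, 3097 and 689 TPM against at most 30.7 TPM. HP, haptoglobin, was at 23.7, 259 and 40.5 TPM, and reads of its near copy HPR could be counted with it. IL13RA2, a decoy receptor for interleukin 13, was at 186, 277 and 216 TPM against at most 2.67 TPM (log2 7.67 ± 0.35, adjusted p = 1.45e-05). KCNE4, ACKR3, HLA-DQA1, PNMA2, SPON2 and CXCL1 were also among the 15. Among long noncoding RNAs LINC02864, MIR100HG and THORLNC led on the higher side and LASTR, AL035661.1 and PCAT1 on the lower.

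The 15 genes furthest below the nearest line, of 210 that qualified, were led by ERP44 and UBE2C. ERP44, a chaperone of the early secretory pathway, stood at 0.232, 0.19 and 0.321 TPM in attached, day 1 and day 7 cells. The other lines held 25.8 to 68.8 TPM, so the groups lay far apart (log2 -6.89 ± 0.26, adjusted p = 1.47e-06). ERP44 lies on chromosome 9, and its neighbours STX17 and INVS did not differ at the threshold, with adjusted p of 0.802 and 0.427. UBE2C, the ubiquitin-conjugating enzyme of the anaphase-promoting complex, was at 2.97, 0.23 and 0.41 TPM against 73.3 to 1352 TPM (log2 -6.84 ± 0.71, adjusted p = 0.000165). Its neighbours DNTTIP1 and TNNC2 on chromosome 20 were not called either (adjusted p = 0.0706 and 0.88).

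The remaining genes on this side included proteases and proteins of epithelia. KLK6, a kallikrein protease, was at 1.35, 0.833 and 0.394 TPM against 14.4 to 518 TPM. INPP4B, a phosphoinositide phosphatase, was at 0.367 to 0.547 TPM against 25.2 to 108 TPM, and ALDH1A3, a retinoic acid synthesizing enzyme, at 9.27, 2.23 and 3.26 TPM against 123 to 519.9 TPM. RAB25, AP1M2, PRSS8 and CGN were among the 15 and are described above with the epithelial list. ARHGAP8, KRTCAP3, MB, SULT2B1, PKIB and HOXB7 completed them. ARHGAP8 counts can include reads of its read-through with PRR5.

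**Figure D4:**
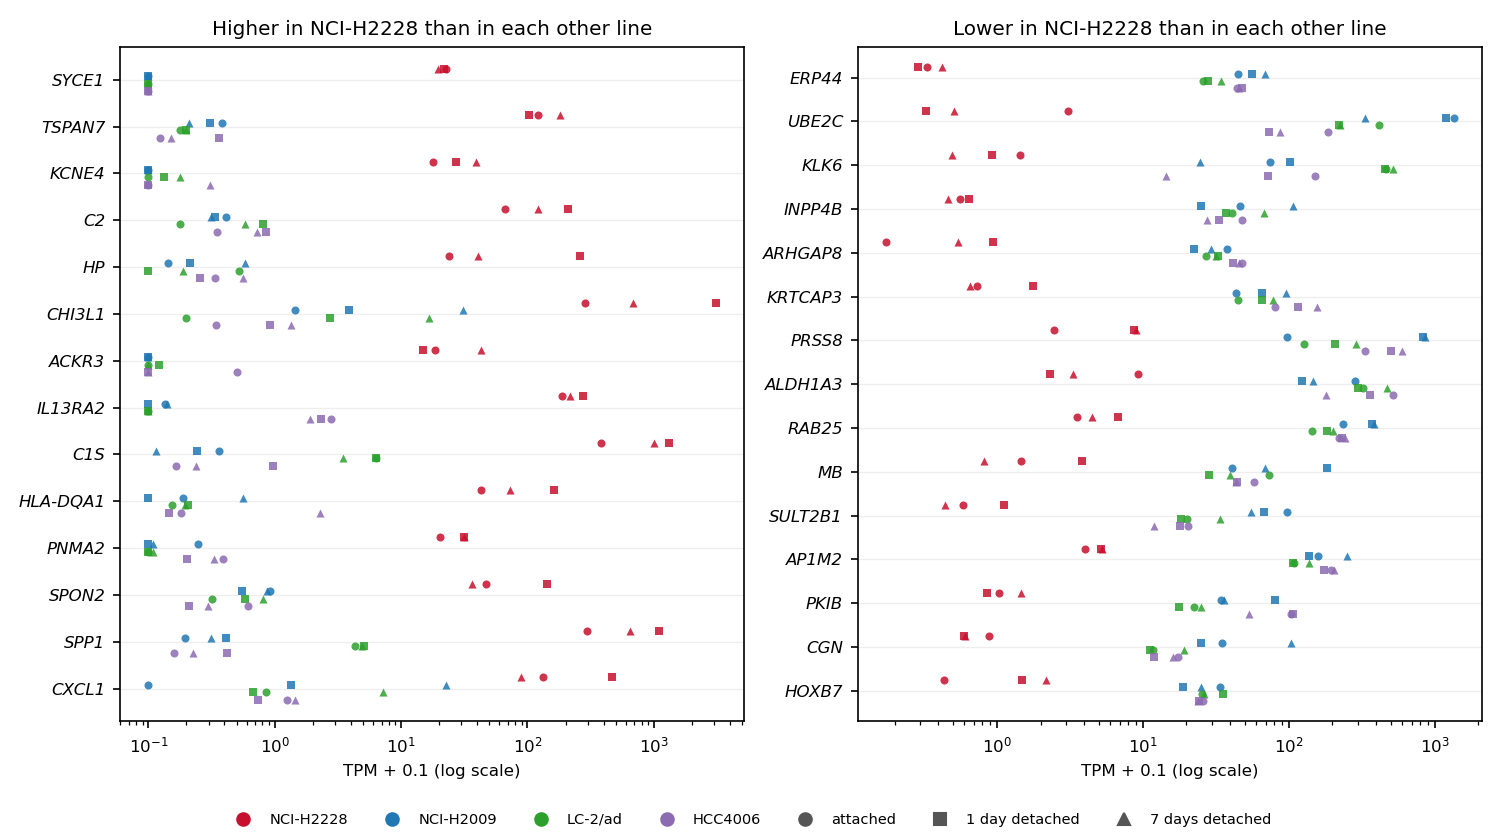
TPM + 0.1 on a log axis of 14 of the 15 protein-coding genes furthest above the nearest other line (left) and the 15 furthest below it (right), 1 point per library. Only genes without overlap were eligible, so no NCI-H2228 point overlaps another line. SYCE1 is listed at 0 in the 9 other libraries.

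UBE2C stood out from the genes it is usually expressed with. In attached NCI-H2228 the mitotic genes CCNB1 and PLK1 were at 517 and 206 TPM, within or above the 308 to 477 TPM and 179 to 349 TPM of the other attached lines, while UBE2C was at 2.97 TPM against 187 to 1352 TPM. Of the 20 listed G2/M genes, 13 were lower than the mean of the other lines, beside 14.7% of all genes. Their median difference in log2(TPM + 1) was -0.37 in attached cells, -1.37 at day 1 and -1.70 at day 7, a difference between states that was not tested. Only UBE2C, AURKB and CDK1 were set apart, and AURKB and CDK1 overlapped the other lines.

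Regulators of the cell cycle differed singly. RB1, the retinoblastoma protein gene, was at 1.72, 0.273 and 1.12 TPM in attached, day 1 and day 7 cells against 2.81 to 14.01 TPM (log2 -1.48 ± 0.45, adjusted p = 0.0255). CDK6 was also set apart as lower, at 0.129 to 1.70 TPM against 1.74 to 13.7 TPM. CDKN2A was near 0 in NCI-H2228, LC-2/ad and HCC4006 and reached 897 TPM in NCI-H2009.

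Some genes near silence also mark the line. HOXA10, a homeobox factor, was at 0.122, 0.146 and 0.566 TPM in attached, day 1 and day 7 cells against 8.47 to 35.7 TPM (log2 -5.38 ± 0.65, adjusted p = 0.000231). Of 34 HOX genes tested, 3 were set apart, HOXA10 and HOXB7 among them, all as lower (8.8% beside 3.77% of all genes). The tumor antigen PRAME was listed at 0, 0 and 0.019 TPM against 0.12 to 60.6 TPM. CYP1A1, the cytochrome induced by the aryl hydrocarbon receptor, was at 0.213, 0 and 0.026 TPM against 5.47 to 839.7 TPM (log2 -7.55 ± 1.66, adjusted p = 0.00578). AHRR, the repressor of that receptor, was low with it. Xenobiotic cytochromes and transporters as a list lay mostly on the higher side. Of 25 tested, 5 were set apart as higher and 2 as lower. Against the mean of the other lines 12 were higher and 5 lower. The list median was 1.4, beside 0.04 over all genes tested.

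Along the chromosomes the differences were not even. Over all tested genes the median difference to the mean of the other lines was 0.04. Chromosome 22 had a median of -0.83, from -1.01 against NCI-H2009 to -0.77 against LC-2/ad and HCC4006. Of its 452 tested genes 57 were set apart as lower (12.6% beside 3.77%) and 6 as higher, MB and ARHGAP8 among the lower. Chromosome 17 had a median of -0.46, and chromosomes 18, 5 and 14 lay at 0.49, 0.48 and 0.47. The value of chromosome 14 rested on NCI-H2009, against which it was 1.06, beside 0.12 and 0.06 against the other 2 lines.

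**Figure D5:**
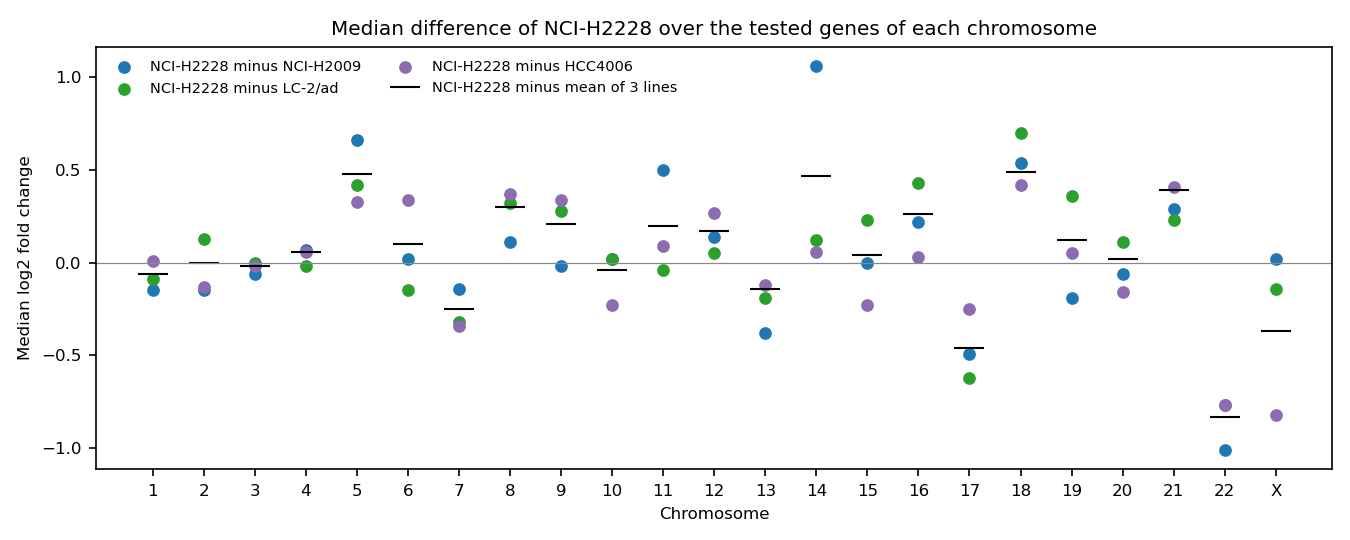
Median log2 fold change of NCI-H2228 over the tested genes of each chromosome, against each other line (points) and against their mean (bars). Chromosome 22 lies lowest, at -0.83 against the mean, and on chromosome 14 a single line, NCI-H2009, stands apart at 1.06.

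In windows of 10 Mb with at least 15 tested genes, 292 in all, the lowest medians were -1.32 on chromosome 7 from 80 to 90 Mb, -1.12 on chromosome 9 from 20 to 30 Mb and -0.97 on chromosome 2 from 20 to 30 Mb. The highest were 1.46 on chromosome 8 from 0 to 10 Mb, 1.24 on chromosome 18 from 70 to 80 Mb and 1.19 on chromosome 8 from 30 to 40 Mb. Not all of these were shared by the 3 contrasts. The chromosome 9 window was at -4.29 against NCI-H2009 and at 0.19 against LC-2/ad, and the first window of chromosome 8 at 4.39 against NCI-H2009 and 0.11 against HCC4006. The other 4 kept their sign against each line. ALK lies in the chromosome 2 window, where 15 of 90 tested genes were set apart as lower, beside 3.77% of all genes. In that window ALK was the 1 set apart as higher. FGFR1 lies in the chromosome 8 window from 30 to 40 Mb, where 12 of 50 were set apart as higher and 0 as lower, beside 3.46% and 3.77% of all genes. Both windows were chosen for their extreme medians, so many genes set apart in the same direction are no separate result.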

How the data were processed

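Libraries came from a SMART-Seq v4 PLUS kit and RNeasy RNA, per the labels' protocols. The authors deposited 1 table of 60715 genes with TPM values and estimated counts for each library, per the file headers. The submitters' processing notes name GRCh38. Aligner, quantifier, annotation and strand setting: not given in the sources used here. Overlapping, antisense and near-identical genes are therefore uncertain. Of the estimated counts above 0, 31.5% were not whole within 0.005, and they were rounded. PCR copies were not marked, so depth covers counting error only.

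After filterByExpr by cell line, 12 libraries entered 1 robust quasi-likelihood fit (edgeR 4.0.16, R 4.3.3, TMM) with cell line as a factor and state as a block, leaving 6 residual degrees of freedom and a biological coefficient of variation of 39.7%. P-values were adjusted by Benjamini-Hochberg across the 18494 genes, at 0.05. The SE comes from the fold change and F statistic and restates the test. For SYCE1, and in the medians of the chemokine and MHC class II lists, a bound against 3 counts per library is given where a whole line was at 0. No bound is given for other genes at 0 in a whole line. Alternatives used limma 3.58.1, DESeq2 1.42.0 and other settings. On simulated counts of 18494 genes, 84% of 50 genes changed 8-fold, 62% of 50 changed 4-fold and 0% of 50 changed 2-fold were set apart. None of the unchanged genes was set apart, and 6 of them were called against the mean. The simulated lines shared a common mean without an effect of state, and the changed genes came from those above a minimum mean count.

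The line, gene lists and naming rule were chosen with earlier results of these data known. The 37 lists hold 816 symbols, of which 1 did not match. Named are the 15 protein-coding genes on each side, and 3 long noncoding RNAs, set apart without overlap, with at least 10 TPM in every library of the higher side, and furthest from the nearest line. In each list up to 6 members set apart and up to 3 abundant others were taken, and further members were named after their values were seen. Promoters are from RefSeq (GRCh38.p14). Some genes and 1 list are not reported here.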

Additional observations from a re-analysis of the deposited data

Results flagged for a closer look

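For 3 genes of the lists, NCI-H2228 lay above all other lines in 1 state and below all of them in another, by at least 0.5 on the log2(TPM + 1) scale to the nearest line. With 1 library per state of a line, these differences between states were not tested. EPHA2, an ephrin receptor, was at 88.6 TPM in attached NCI-H2228, 0.54 above the nearest line, and at 11.1 TPM at day 1, where the difference was -1.16. E2F1, a factor of S phase entry, was at 38.8 TPM attached, 0.51 above the nearest line, with differences of -1.86 at day 1 (5.12 TPM) and -0.68 at day 7 (9.60 TPM). FAS, a death receptor, was at 32.5 TPM at day 1, 0.61 above the nearest line, and at 8.30 TPM at day 7, where the difference was -0.79.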

How the results depend on the processing

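Genes named and members set apart, 176 in all, were followed through the alternatives, giving 3864 values. The call was kept in 3435 and lost in 429, and none was reversed. Of the 36 named genes 34 kept the call in each alternative run for them. The exceptions were CXCL1 without a filter on low counts (adjusted p = 0.0569) and PCAT1 when the 2-fold threshold itself was tested with glmTreat (adjusted p = 0.111). The median over all genes moved from 0.04 to -0.163 without a filter and to -0.131 with the 9 other libraries as 1 group. That grouping gave 834 genes higher and 770 lower than the other lines. glmTreat gave 1397 and 793, with 268 set apart as higher and 286 as lower, 12 of the NRF2 list, 8 of the mesenchymal list and 3 of MHC class II. Leaving out the line NCI-H2009 gave 1159 and 1130 set apart, leaving out HCC4006 gave 1173 and 1060, and leaving out LC-2/ad gave 824 and 912. Each of these fits had fewer contrasts to pass. MHC class II gave 8 with DESeq2, 3 with no block for state and 12 without HCC4006. The cause of these changes was not tested.

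Leaving out 1 library at a time gave 2614 to 4122 genes higher and 1793 to 2974 lower than the mean of the other lines, with the lowest count of lower genes without day 7 NCI-H2228. Genes set apart ranged from 477 to 682 higher and from 504 to 706 lower. The lists gave 16 to 22 for NRF2, 17 to 22 for epithelial junctions, 9 to 13 for mesenchymal genes, 3 to 7 for MHC class II and 6 to 11 for chemokines and cytokines. The ALK difference ranged from 6.37 to 7.33. Libraries were paired across lines by state, which the fit holds as a block. Without it, 548 genes were set apart as higher and 601 as lower. With 1 library per state the precision of a line's value in a state is unknown. Of simulated 2-fold differences, 24% were called against the mean, so few of that size can be called at this depth of replication. In the simulation 0% of them were set apart. That share says little about replication, since the rule itself asks for an estimate of at least 2-fold in each contrast.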

Other observations

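Of 24 genes of aldehyde, keto and retinoid metabolism tested, 5 were set apart as higher (20.8% beside 3.46% of all genes) and 4 as lower (16.7% beside 3.77%). The higher ones were aldo-keto reductases, ALDH3A1 and AKR1B10, most of which the NRF2 list holds too. The lower ones included ALDH1A3, which makes retinoic acid, and CRABP2, which carries it to the nucleus, at 53.01, 40.5 and 43.9 TPM in attached, day 1 and day 7 NCI-H2228 against 229 to 1005 TPM (log2 -2.82 ± 0.29, adjusted p = 0.000103). DHRS3, a retinal reductase, was at 11.7, 49.7 and 17.0 TPM against 39.8 to 192 TPM and overlapped.

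Of 18 serpins tested, which mostly inhibit proteases, 5 were set apart as higher (27.8% beside 3.46% of all genes) and 1 as lower (5.6% beside 3.77%). SERPINF1 stood at 53.3, 131 and 69.3 TPM against at most 4.15 TPM (log2 6.02 ± 0.73, adjusted p = 0.000235), and SERPINE2 at 401, 707 and 696 TPM against at most 347 TPM. SERPINB5, maspin, was at 1.73, 1.08 and 0.41 TPM against 1.22 to 51.0 TPM. Of 20 integrins, 2 were set apart as higher (10%) and 3 as lower (15%), beside 3.46% and 3.77% of all genes. ITGAV and ITGB3, which pair as a vitronectin receptor, were higher, with ITGB3 at 4.37, 13.5 and 7.52 TPM against at most 2.51 TPM. ITGB6, which pairs with ITGAV in epithelia, was at 3.02, 0.601 and 1.27 TPM against 9.09 to 53.1 TPM (log2 -2.82 ± 0.41, adjusted p = 0.000873).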
